A study of Mus musculus with 2 samples.

Results

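The 9 genes described here carry or read the Sonic hedgehog signal: the ligand gene Shh, the receptor and binding-protein genes Ptch1, Hhip, Boc and Cdon, the signal transducer gene Smo and the transcription factor genes Gli1, Gli2 and Gli3. They were taken by symbol from the 55536 genes of the GENCODE M21 annotation, and all 9 were found in the tables of both samples. RNA was measured in hindbrain of B6NCrl mouse embryos of mixed sex at embryonic day 12.5. There was 1 group, for which the labels give no treatment, allele or transgene, and it held 2 biological replicates: pool 1 from 120 embryos and pool 2 from 88 embryos. Each library was made from 10 ng of RNA primed with oligo-dT and carried ERCC spike-in RNAs. A pool averages many embryos, so no value belongs to an embryo or a litter, and with no second condition the series allows no test between conditions. In tissue of many cell types, fewer cells of a type and less RNA per cell cannot be told apart.

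Shh is a secreted lipid-modified protein that patterns the neural tube from the notochord and the floor plate and later drives the proliferation of granule neuron precursors in the cerebellum. Without ligand, the membrane protein Ptch1 keeps Smo inactive and the Gli proteins are processed to repressors, Gli3 above all. With ligand, Ptch1 releases Smo, full-length Gli proteins activate transcription, and Ptch1, Gli1 and Hhip are themselves among the targets, which gives the pathway a negative feedback through Ptch1 and Hhip. Boc and Cdon, related membrane proteins of the immunoglobulin superfamily, bind the ligand together with Ptch1 and promote the signal.

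RefSeq promoter windows (build GRCm38.p6, 250 bases before and 50 after the transcription start) were held for 6 of the 9 genes: Ptch1, Smo, Gli2, Gli3, Hhip and Cdon. Of these, 3 are shown because they frame the transcript results below. The window of Ptch1, chr13:63565686-63565985 on the minus strand, lies at the start of Ptch1-201, a transcript that held 14.0% of the gene's abundance. That of Cdon, chr9:35451826-35452125 on the plus strand, lies at the start of Cdon-201, to which no count was assigned. The window of Gli2, chr1:119053570-119053869 on the minus strand, lies at the start of the transcript that held 94.1% of the gene's abundance. Capitals mark CpG dinucleotides in the windows of Ptch1 and Cdon, and in that of Gli2 the letters of the Gli-binding core.
Ptch1: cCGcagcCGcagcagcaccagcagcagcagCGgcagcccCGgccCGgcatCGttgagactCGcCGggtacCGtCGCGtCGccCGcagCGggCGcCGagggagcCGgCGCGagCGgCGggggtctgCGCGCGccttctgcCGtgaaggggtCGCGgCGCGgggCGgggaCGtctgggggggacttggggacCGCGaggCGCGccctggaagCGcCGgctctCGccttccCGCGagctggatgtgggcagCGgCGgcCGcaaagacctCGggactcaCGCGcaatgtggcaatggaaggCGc
Cdon: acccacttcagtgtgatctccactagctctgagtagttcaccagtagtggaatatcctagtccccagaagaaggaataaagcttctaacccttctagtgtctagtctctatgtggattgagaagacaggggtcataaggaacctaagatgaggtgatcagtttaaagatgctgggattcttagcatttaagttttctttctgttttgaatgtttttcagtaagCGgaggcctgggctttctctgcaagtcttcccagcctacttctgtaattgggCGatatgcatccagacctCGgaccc
Gli2: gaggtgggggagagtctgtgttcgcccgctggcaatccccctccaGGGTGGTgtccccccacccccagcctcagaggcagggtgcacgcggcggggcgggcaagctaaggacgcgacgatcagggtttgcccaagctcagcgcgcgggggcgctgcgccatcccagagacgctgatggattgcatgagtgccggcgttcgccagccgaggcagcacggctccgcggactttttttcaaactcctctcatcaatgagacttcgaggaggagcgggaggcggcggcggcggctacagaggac
The Ptch1 window held 47 CpG dinucleotides at a GC content of 76.3%, more CpGs than 98.6% of all windows. The Cdon window held 3 at 44.7% GC. The median over 32851 RefSeq windows of the same length was 7. Between these lay Smo with 17, Gli2 with 28, Hhip with 30 and Gli3 with 39 CpGs. The 9-base Gli-binding sequence GACCACCCA, searched on both strands, was in 83 of the 32851 windows (0.253%) and in none of the 6 held here. Its 7-base core ACCACCC, which lies within the longer motif, was in 1514 windows (4.61%) and, among the 6, in that of Gli2, where it reads GGGTGGT on the strand shown with its leftmost base at position -205 from the start site. A match of these letters is a description of the window and not a binding site.

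All 9 genes were expressed. Abundance is given as TPM, the length-normalised share of transcripts in a library, with the mean and SD over the pools (n = 2) after the 2 values. Each of the 9 reached 1 TPM in both pools, a level that 29% of all genes and 61.8% of 22028 protein-coding genes reached. Their median level was 14.4 TPM, against 16.9 TPM over the 16100 genes that reached 1 TPM and 21.8 TPM over the 13619 protein-coding genes among them. The levels ran from 2.86 TPM for Hhip to 39.9 TPM for Smo. From the highest, the order was Smo, Boc, Gli3, Ptch1, Cdon, Gli2, Shh, Gli1 and Hhip. For 6 of the 8 neighbouring pairs in that order the values of the pools did not overlap. Shh and Gli1 overlapped, as did Gli1 and Hhip, so the lowest 3 genes cannot be put in a firm order. The order above them depends on the transcripts counted and on the annotation. With complete protein-coding transcripts alone, Gli3 (10.9 and 11.58 TPM) and Ptch1 (10.38 and 11.86 TPM) overlapped, as did Gli2 and Cdon.

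**Figure D1:**
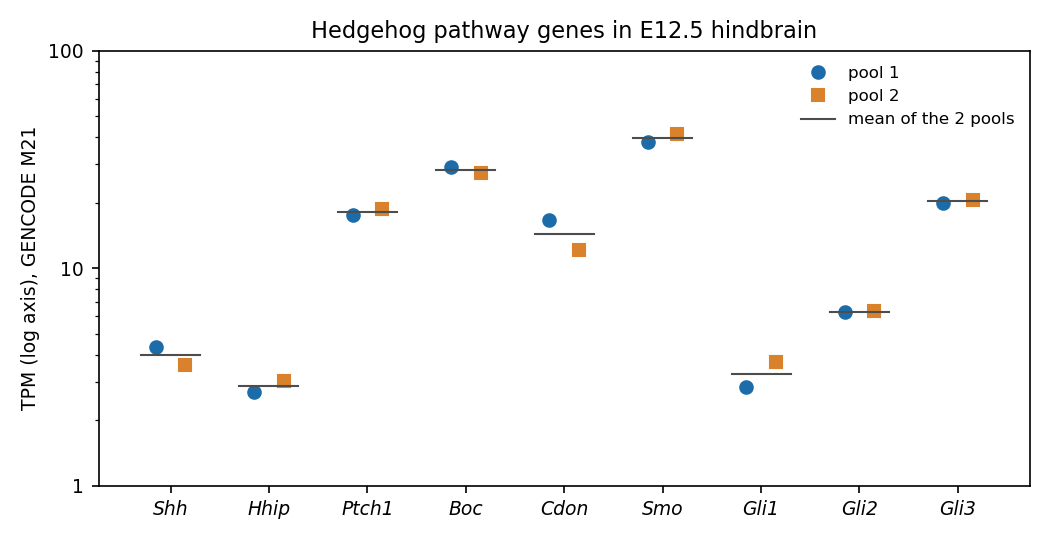
Abundance of the 9 hedgehog genes in TPM (log axis, GENCODE M21) in pool 1 (circles) and pool 2 (squares), with a line at the mean. Smo and Boc stand highest at 39.9 and 28.2 TPM, and Shh, Gli1 and Hhip lie between 2.69 and 4.35 TPM in every sample.

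Shh (ENSMUSG00000002633.4, chr5:28456815-28467256, minus strand, mm10) has a single annotated transcript and was at 4.35 and 3.59 TPM in pools 1 and 2 (3.97 ± 0.537), from 238.65 and 181.72 expected counts. This placed the ligand gene at percentile 47.0 of all protein-coding genes. The other hedgehog ligand genes were lower in these libraries. Ihh, the Indian hedgehog gene of cartilage and gut, was at 0.11 and 0.64 TPM in pools 1 and 2, from 4 and 28 counts. Dhh, the Desert hedgehog gene of Schwann cells and testis, was at 0.65 and 0.82 TPM. Shh thus held 85.1% of the summed TPM of the 3 ligand genes in pool 1 and 71.1% in pool 2 (78.1% ± 9.93). Exons of Shh overlap those of 2 genes on the opposite strand over 446 and 361 bases. Of these, 9530036O11Rik had no count and Gm26894 had 15.35 and 6.28 counts; without a stated use of strand these reads cannot be separated with certainty. The same limit holds for exons of Gli1 that overlap Arhgap9 (62 bases) and Gm47200 (265 bases), of Gli3 with Gm6556 (188 bases) and of Hhip with Gm27820 (175 bases), all on the opposite strand.

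Smo, in contrast, was far more abundant than the ligand gene. The ratio of Smo to Shh TPM was 8.79 in pool 1 and 11.6 in pool 2 (10.2 ± 1.96). Smo (ENSMUSG00000001761.7, chr6:29735503-29761365, plus strand), the seven-pass membrane protein through which the signal enters the cell, was at 38.25 and 41.5 TPM in pools 1 and 2 (39.9 ± 2.30), from 2731.81 and 2729 counts. At percentile 80.0 of protein-coding genes it was the highest of the 9. Its coding transcript Smo-201 held 91.6% ± 0.245 of its abundance and the intron-retaining Smo-202 the rest, at 3.12 and 3.54 TPM.

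Ptch1 (ENSMUSG00000021466.12, chr13:63508328-63573598, minus strand), the receptor that inhibits Smo, was at 17.56 and 18.67 TPM in pools 1 and 2 (18.1 ± 0.785), from 2109 and 2110 counts. It stood below its partner Smo: the ratio of Ptch1 to Smo TPM was 0.459 in pool 1 and 0.450 in pool 2 (0.454 ± 0.00651).

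Hhip (ENSMUSG00000064325.4, chr8:79965851-80058006, minus strand), which encodes a membrane protein that binds hedgehog ligands and so limits their reach, had the lowest mean, 2.69 and 3.03 TPM in pools 1 and 2 (2.86 ± 0.240). Ptch1, the other inhibitory ligand-binding protein, was 6.34 ± 0.259 times as abundant as Hhip. That ratio was 3.48 ± 0.230 in the GENCODE M4 tables, where Hhip was higher, at a mean of 4.36 TPM, and Ptch1 lower, at 15.1 TPM. The longest Hhip model is 4582 bases in M4, against 9074 bases in M21. The part of model length in the change was not tested.

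Of the co-receptor genes, Boc was higher than Cdon in both pools. Boc (ENSMUSG00000022687.12, chr16:44485049-44558897, minus strand) was at 29.06 and 27.27 TPM in pools 1 and 2 (28.2 ± 1.27), from 2526 and 2185 counts, all on its single M21 transcript. M4 has another Boc model, of 4428 bases, that held 96.14% and 98.16% of the gene in pools 1 and 2, and the M21 transcript held 2.85% there on average. Cdon (ENSMUSG00000038119.15, chr9:35421128-35507652, plus strand) was at 16.63 and 12.14 TPM in pools 1 and 2 (14.4 ± 3.17), from 1230 and 989 counts. Of the 9 genes it had the largest SD. The ratio of Boc to Cdon was 1.75 in pool 1 and 2.25 in pool 2 (2.00 ± 0.353). Gas1, a lipid-anchored co-receptor outside the 9, was higher still at 123.37 and 133.07 TPM in pools 1 and 2 (128 ± 6.86). Gas1 held 75.1% ± 2.95 of the summed TPM of the 3 co-receptor genes.

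Among the transcription factor genes, Gli3 was the most abundant and Gli1 the least in each pool. Gli3 (ENSMUSG00000021318.15, chr13:15463235-15730026, plus strand), known mainly as the source of the repressor, was at 19.96 and 20.63 TPM in pools 1 and 2 (20.3 ± 0.474), from 2187.39 and 2109.7 counts. Gli2 (ENSMUSG00000048402.14, chr1:118834132-119053619, minus strand), the main activator of the initial response in the mouse, was at 6.27 and 6.34 TPM (6.31 ± 0.0495), from 765 and 739 counts. Gli1 (ENSMUSG00000025407.7, chr10:127329882-127341974, minus strand), an activator that is itself a target of the pathway, was at 2.84 and 3.7 TPM (3.27 ± 0.608).

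Gli3 made up 68.7% of the summed TPM of the 3 genes in pool 1 and 67.3% in pool 2 (68.0% ± 0.988). For Gli2 the share was 21.6% in pool 1 and 20.7% in pool 2 (21.1% ± 0.634). Gli1 took the remaining 9.77% in pool 1 and 12.1% in pool 2 (10.9% ± 1.62). The pools' values for the 3 shares did not overlap, and Gli3 was 6.30 ± 1.03 times as abundant as Gli1. These are RNA shares; processing of Gli3 to its repressor form happens on the protein and leaves no trace in them. For Gli2, the bounds that the deposited table gives for the estimate were 6.42 to 9.01 TPM in pool 1 and 6.60 to 8.99 TPM in pool 2, both above the estimate itself. No source used here gives the level of these bounds.

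The transcripts behind these levels differed between genes. The 9 genes have 40 annotated transcripts, of which 13 had no count in either pool, and Shh and Boc have 1 each. In 5 of the 9 genes, Ptch1, Gli1, Gli3, Hhip and Cdon, complete protein-coding transcripts held under 90% of the abundance. The remainder went to transcripts annotated as retaining an intron, as targets of nonsense-mediated decay, as noncoding, or as coding with an end missing in the model. Summed over these classes, the remainder was a smaller share of expected counts than of TPM in each of these 5 genes. The nonsense-mediated decay class of Ptch1 went the other way, with 14.2% of the TPM and 20.5% of the counts. The share of all genes under the 90% limit, or of all transcripts without a count, was not taken. Neither count therefore sets the 9 genes apart from other genes.

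**Figure D2:**
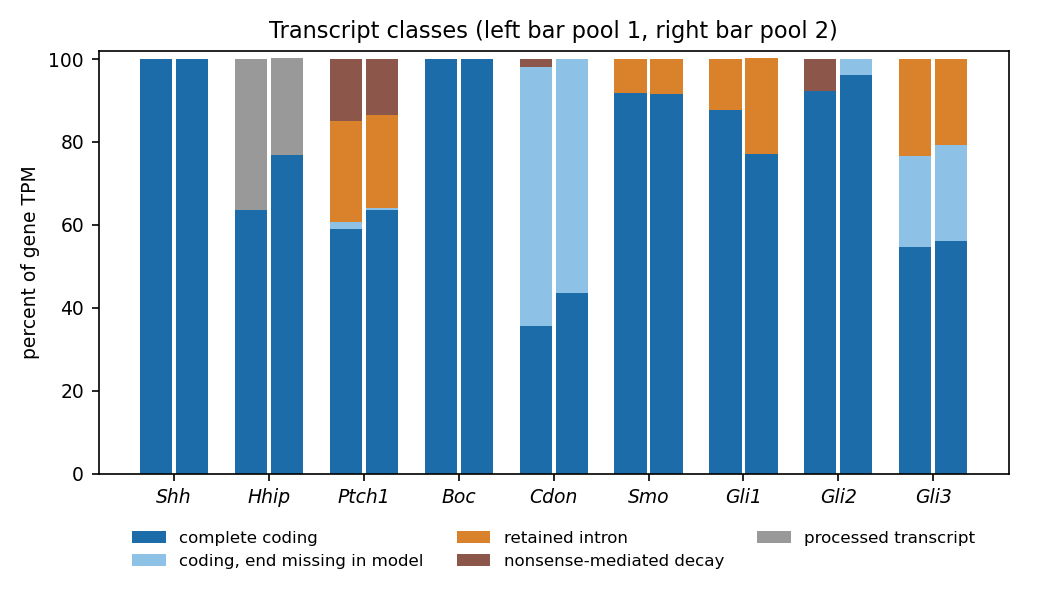
Percent of each gene's TPM by annotated transcript class (stacked bars, pool 1 left and pool 2 right of each pair). Complete coding transcripts make up 39.6% of Cdon, 55.4% of Gli3 and 61.3% of Ptch1 on average, and all of Shh and Boc.

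Cdon departed furthest from its complete coding form. Cdon-206, a coding model of 2222 bases with a missing end, was at 7.61 and 6.84 TPM in pools 1 and 2, which was 51.1% ± 7.48 of the gene's TPM but 26.6% ± 0.581 of its counts. Cdon-202, the complete coding transcript of 7503 bases, was at 5.91 and 5.29 TPM in pools 1 and 2, from 874.5 and 721.51 counts. It held 39.6% ± 5.68 of the TPM and 72.0% ± 1.31 of the counts. Cdon-205, an incomplete model of 652 bases, was at 2.15 TPM in pool 1 from 23.78 counts and at 0 in pool 2 (3 counts would be 0.295 TPM). Cdon-201, the transcript whose start lies in the printed Cdon window, was assigned 0 counts in both pools (3 counts would be 0.0211 and 0.0229 TPM in pools 1 and 2). Its span lies within that of Cdon-202, and reads that match both are assigned by estimate. The 0 therefore sets no upper limit on Cdon-201. Cdon-202, further upstream, starts at position -30518 from that window's start site. With complete coding transcripts alone, Cdon was at 5.6 ± 0.438 TPM, beside 5.94 TPM for Gli2 counted the same way, with overlapping pools, and the ratio of Boc to Cdon was 5.04 ± 0.168.

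In Ptch1, the coding transcript Ptch1-202 led with 8.27 and 8.88 TPM in pools 1 and 2 (47.3% ± 0.330 of the gene). Its start lies 1200 bases downstream of the RefSeq start in the printed window. Ptch1-201, which begins at the RefSeq start, was at 2.11 and 2.98 TPM (14.0% ± 2.79). The intron-retaining Ptch1-210 was at 4.29 and 3.94 TPM, 22.8% ± 2.35 of the TPM and 7.94% ± 0.929 of the counts. The complete coding transcripts of Ptch1 summed to 10.38 and 11.86 TPM in pools 1 and 2, and over Smo counted the same way they gave a ratio of 0.304 ± 0.0119.

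Gli3-201, the complete coding transcript of Gli3, was at 10.9 and 11.58 TPM in pools 1 and 2 (55.4% ± 1.08 of TPM, 81.0% ± 0.843 of counts). Gli3-203 retains an intron and was at 4.67 and 4.28 TPM, and Gli3-202, a coding model with a missing end, was at 4.39 and 4.77 TPM. The starts of Gli3-202, Gli3-203 and Gli3-201 lie at positions -488, 0 and 257 from the RefSeq start. Among complete coding transcripts, Gli3 held 56.6% of the summed Gli TPM, Gli2 29.9% and Gli1 13.4%. Gli3 was therefore highest and Gli1 lowest under either count.

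Gli1-201, the complete coding transcript of Gli1, was at 2.49 and 2.85 TPM in pools 1 and 2 (82.4% ± 7.53 of TPM, 95.9% ± 1.51 of counts). The intron-retaining Gli1-205, a model of 795 bases, was at 0.2 and 0.8 TPM in pools 1 and 2 from 2.8 and 10.25 counts, which was 7.04% and 21.6% of the gene's TPM. Gli2-201 held 94.1% ± 2.74 of the Gli2 TPM and 98.9% ± 0.410 of the counts. Hhip-201, the coding transcript of Hhip, was at 1.71 and 2.33 TPM and held 95.1% ± 2.03 of the counts, while the noncoding Hhip-202, with 20.92 and 13.98 counts, held 29.9% ± 9.19 of the TPM.

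The deposited M4 tables, an older annotation of the same reads, gave levels within 1.5-fold of M21 for 8 of the 9 genes. The exception was Hhip, at 2.69 and 3.03 TPM in M21, against 3.91 and 4.8 TPM in M4 (ratio of means 0.657). Over 15686 genes at 1 TPM or more, 6% were 1.5-fold or more apart between the annotations. In M4, Hhip stood above Gli1 in the order. Ptch1 (14.24 and 15.92 TPM in pools 1 and 2) and Cdon (17.2 and 12.61 TPM) overlapped there, with Cdon higher in pool 1. The share of the leading M21 transcript moved between the annotations as well. It was 47.3% in M21, against 66.6% in M4, for Ptch1-202, and 70.2%, against 84.1%, for Hhip-201. For Gli1 and Smo it was 82.4% and 91.6% in M21, and M4 has 1 transcript for each.

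**Figure D3:**
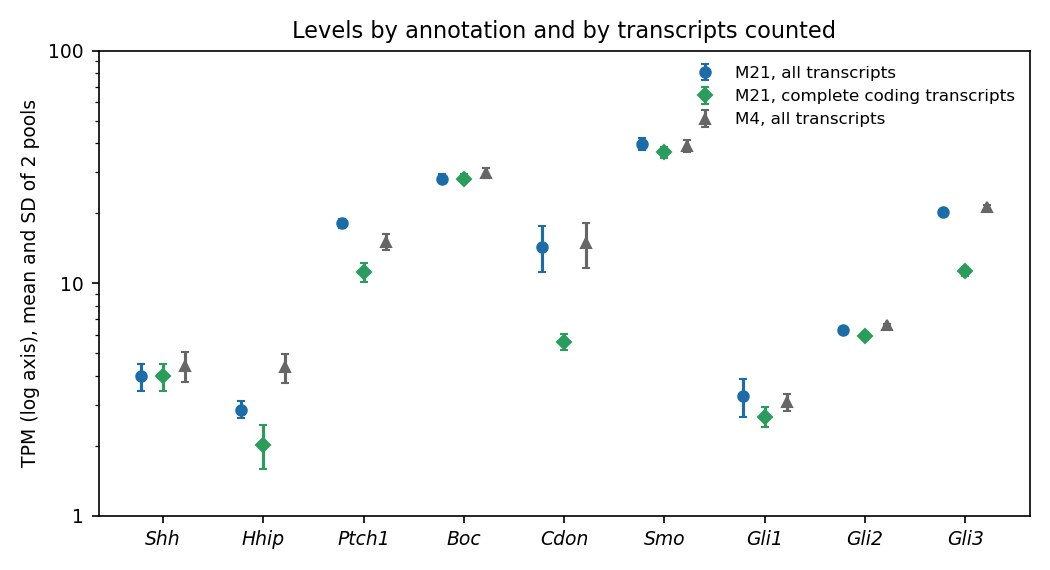
Abundance of the 9 genes (TPM, log axis; mean and SD of the 2 pools) from all M21 transcripts (circles), complete coding M21 transcripts (diamonds) and all M4 transcripts (triangles). Cdon stands at 14.4 TPM from all M21 transcripts and at 5.6 TPM from complete coding ones, and Hhip at 2.86 TPM in M21 and 4.36 TPM in M4.

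The pools were compared by the log2 ratio of scaled counts (pool 1 over pool 2, trimmed mean of M values, prior count 0.5) with a 95% interval that covers counting error only. None of the 9 genes was 2-fold apart, against 0.994% of 14989 genes with 50 or more mean counts (0.414% higher in pool 1 and 0.58% higher in pool 2). The median of the 9 was -0.06, against -0.00186 for all genes. Of the 9, Shh, Boc and Cdon were higher in pool 1, as were 49.4% of all genes. Spike-in scaling moves every gene up by about 0.37, and by it all but Hhip were higher in pool 1, as were 95.6% of all genes. The interval left out 0 for 6 of the 9, Shh, Ptch1, Smo, Hhip, Boc and Cdon, and for 35% of all genes, so libraries of this group differ by more than counting error in many genes.

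In scaled counts Hhip had the largest ratio of the 9, -0.39 (interval -0.60 to -0.17), from 328 counts in pool 1 and 398.37 in pool 2. Of all genes compared, 8.34% had a larger ratio in either direction. Shh followed with 0.29 (0.00209 to 0.57), and 14.2% of genes had a larger one. Gli1, with 203 and 219 counts, was at -0.22 (-0.50 to 0.07). These 3 genes, the only ones of the 9 with under 500 mean counts, had the widest intervals. The log2 ratio of TPM was -0.17 for Hhip, 0.28 for Shh and -0.38 for Gli1, and on that scale Cdon was furthest from 0.

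Cdon was at 0.21 (0.09 to 0.33) in counts. Its TPM ratio was larger, 0.45 on the log2 scale, and that of its complete coding transcripts was 0.16. Boc was at 0.10 (0.02 to 0.19), Ptch1 at -0.11 (-0.20 to -0.02) and Smo at -0.11 (-0.18 to -0.03). Gli3 at -0.05 (-0.14 to 0.03) and Gli2 at -0.06 (-0.20 to 0.09) had intervals that held 0. All 9 ratios lie within the range of -0.50 to 0.49 that held the central 95% of genes. Spike-in scaling put the median of the 9 at 0.32, against 0.37 for all genes.

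**Figure D4:**
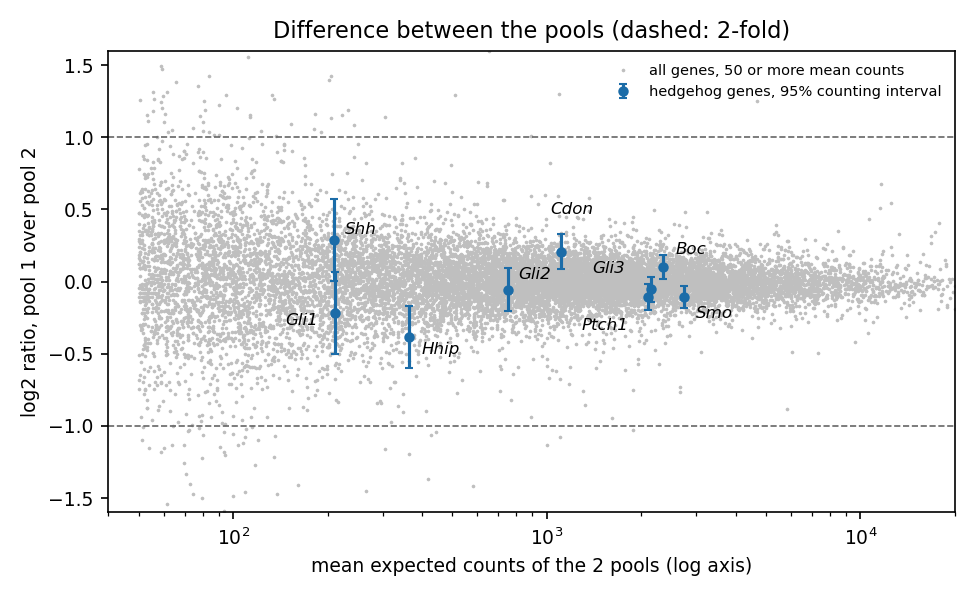
Log2 ratio of pool 1 over pool 2 against the mean expected counts of the 2 pools (log axis) for all genes with 50 or more mean counts (grey) and the 9 hedgehog genes (blue, with the 95% counting interval); genes beyond the axes are not drawn. The 9 genes lie between -0.39 and 0.29, inside the dashed 2-fold lines.

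Markers of some other cell types in the dissected tissue differed between the pools. The 6 skeletal muscle markers were each at least 2-fold higher in pool 2 and summed to 23.3 and 120.2 TPM in pools 1 and 2. Of the epithelial markers, 5 of 6 were higher in pool 1, and the 6 summed to 111.5 and 74.4 TPM in pools 1 and 2. Endothelium markers summed to 77.4 and 83.9 TPM in pools 1 and 2, and none of them was 2-fold apart. Mesenchyme markers summed to 936.1 and 1227.0 TPM in pools 1 and 2, and cartilage markers to 592.3 and 630.5 TPM. Most of the cartilage sum was Col2a1. Matn1, at 3.55 and 14.79 TPM in pools 1 and 2, and Acan, at 3.41 and 9.09 TPM, were over 2-fold higher in pool 2. Col2a1, Col9a1 and Sox9 were at log2 ratios of -0.07, -0.11 and 0.02, pool 1 over pool 2. The part of these tissues in the levels or pool differences of the 9 genes was not tested. For the notochord, a source of Shh outside the brain, Noto had 0 counts in both pools. Tbxt had 11 and 32 counts (0.28 and 1.19 TPM) in pools 1 and 2. The part of the notochord in the level of Shh was not tested either.

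The tissue label was checked against its markers, with no list for midbrain or spinal cord, so the presence of those tissues was not checked. All 5 radial glia markers and all 4 neuron markers reached 1 TPM in both pools, with summed levels of 2447 and 1394 TPM in pool 1 and of 2241 and 1418 TPM in pool 2. Of the 5 hindbrain markers, 4 reached 1 TPM in both pools and the fifth, Egr2, was at 0.88 and 1.17 TPM. Their sum was 133.9 and 175.4 TPM in pools 1 and 2. Of 4 forebrain markers, only Lhx2, a gene also expressed outside the forebrain, reached 1 TPM in both pools. Genes took 31469575 counts in pool 1 and 29261472 in pool 2, and spike-ins took 3.31% and 4.25% of the totals.

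Around the 9 genes, 44 further genes of the pathway were grouped by role in 5 lists. Of the 44, 41 reached 1 TPM in both pools, beside 29% of all genes and 61.8% of protein-coding genes. The median level was 16.9 TPM over the 44, against 14.4 TPM for the 9. None of the 42 with 50 or more mean counts was 2-fold apart between the pools, against 0.994% of all such genes. Of these 42, 24 were higher in pool 1 and 18 in pool 2, and their median log2 ratio was 0.03.

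Ligand processing and release was represented by 5 of 7 genes at 1 TPM or more, with a median of 5.29 TPM. Scube1, which encodes a secreted protein of a family that helps to release the ligand, was highest at 25.3 ± 0.276 TPM. Disp1, the transporter that releases lipid-modified hedgehog from the producing cell, was at 14.1 ± 2.61 TPM, and Scube3 at 9.08 ± 0.636 TPM. Each of these 3 stood above Shh in both pools. The 2 genes under 1 TPM were Ihh and Dhh, and Ihh differed by -2.76 (-4.89 to -1.40) on the log2 scale between the pools at only 16 mean counts. It was higher in pool 2, as were the cartilage markers Matn1 and Acan by over 2-fold, while Col2a1, Col9a1 and Sox9 differed little. The part of cartilage in the difference of Ihh was not tested.

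All 6 further genes of ligand reception reached 1 TPM, with a median of 44.1 TPM. Gpc3, a glypican that competes with Ptch1 for the ligand, was highest at 280 ± 35.3 TPM, followed by Gas1. Mgrn1, a ubiquitin ligase that lowers the amount of Smo at the cell surface, was at 71.4 ± 1.12 TPM. All 3 were more abundant than any of the 9 genes.

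All 19 genes of signal transduction reached 1 TPM, with a median of 24.0 TPM. The highest encode parts of kinases that phosphorylate Gli proteins and have many other substrates: Prkar1a, a regulatory subunit of protein kinase A, at 367 ± 27.1 TPM, and Csnk1a1, casein kinase 1 alpha, at 231 ± 2.42 TPM. Spop, the adaptor through which Gli2 and Gli3 are marked for degradation, followed at 161 ± 5.02 TPM. Sufu, which holds Gli proteins inactive, was named after its values were seen, at 30.47 and 28.95 TPM in pools 1 and 2. Its ratio to the summed TPM of the 3 Gli genes was 1.05 in pool 1 and 0.944 in pool 2 (0.996 ± 0.0737).

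Genes known as targets in several tissues were led by cell cycle genes. Ccnd2, a D-type cyclin, was at 451 ± 19.0 TPM, a level 4.34 times that in M4. Ccnd1 was at 96.8 ± 3.53 TPM and Mycn, a growth regulator of granule neuron precursors, at 64.3 ± 2.39 TPM; all 5 genes of the list reached 1 TPM. These genes answer to many signals. Of the targets held to be more specific to the pathway, Ptch1 was at 18.1 TPM, Gli1 at 3.27 TPM and Hhip at 2.86 TPM.

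Transcription factors of the ventral neural tube, where the Shh signal is strongest, had the lowest median of the 5 lists. It was 2.53 TPM, against 5.465 TPM over all protein-coding genes. Of the 7 factors, 6 reached 1 TPM in both pools. Nkx6-1 was at 14.4 ± 0.368 TPM and Nkx6-2 at 14.3 ± 0.601 TPM, both factors of broad ventral progenitor domains. Foxa2, a factor of the floor plate, was at 4 and 3.28 TPM in pools 1 and 2 (3.64 ± 0.509), close to Shh in both pools. Nkx2-9 was under 1 TPM in both, at 0.9 and 0.42 TPM from 21 and 9 counts.

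**Figure D5:**
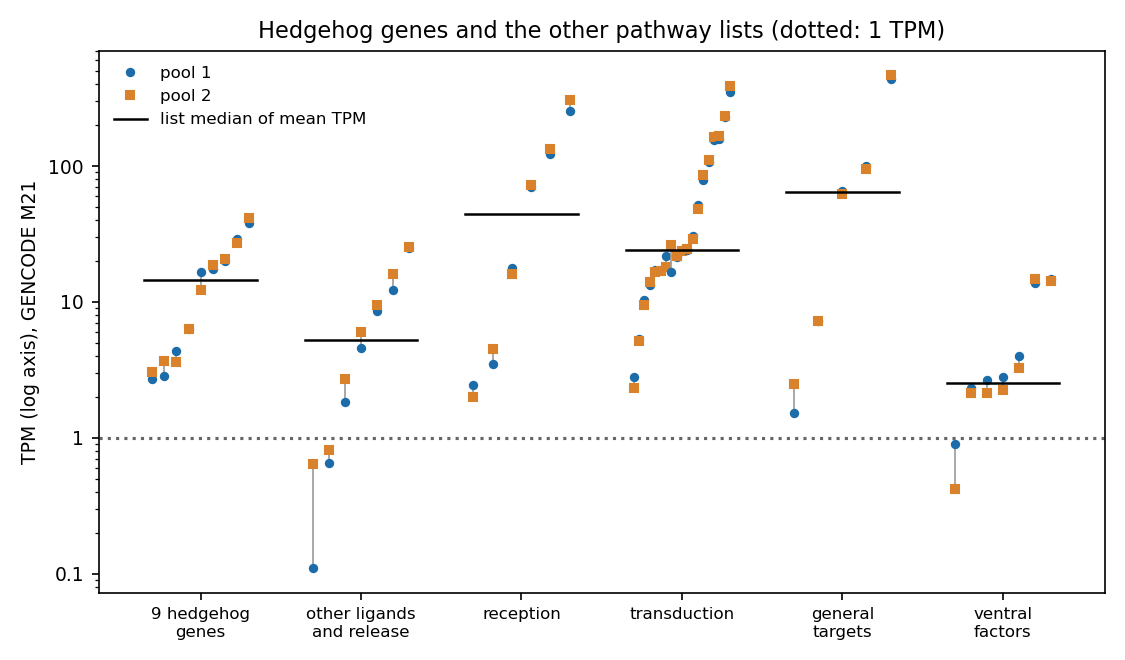
Abundance (TPM, log axis, GENCODE M21) of the 9 hedgehog genes and of the 5 other lists in pool 1 (circles) and pool 2 (squares), joined by gene, with a line at each list's median. Medians run from 2.53 TPM for the ventral factors to 64.3 TPM for the general targets, and that of the 9 genes is 14.4 TPM.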

How the data were processed

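Per the deposited read-me files, gene and transcript tables of each pool came from alignments to the transcriptome on mm10, with GENCODE M21 and again with GENCODE M4. Which program was used, and whether it used strand, are not given in the sources used here. Expected counts, as deposited, are estimated reads with fractions, unscaled for depth. TPM values, as deposited, are per effective length and scaled to a fixed total over genes, spike-ins and tRNA entries. Isoform values, as deposited, are in percent of the gene; shares of TPM and of counts were recomputed from the transcript tables, and the deposited values served as an alternative. The deposited tables also give upper and lower bounds of TPM, with no stated level.

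M21 was the main quantification. Gene means and SDs are over 2 pools. Expected counts were rounded for TMM scaling (edgeR 4.0.16) and DESeq2 1.42.0 size factors; the log2 ratios used unrounded counts. Intervals are exact binomial on the 2 counts at 95% and, with no molecular identifiers mentioned, cover counting error only. Library totals were 32547454 counts in pool 1 and 30559015 in pool 2. Counts of the pools differed by more than sampling noise (chi-square per degree of freedom 10.4), so they are separate libraries. Promoter windows came from RefSeq (GRCm38.p6). The ratio step was tested on simulated data. Software was R 4.3.3 and Python 3.11.15 with scipy 1.17.1, numpy 2.4.6, pandas 2.3.3 and matplotlib 3.10.9.

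The 9 genes, the lists and all rules were chosen with earlier results of these data known. Named are the 9 genes with each transcript at 10% or more of TPM in either pool, and of each other list the 3 genes of highest mean TPM, up to 3 under 1 TPM in both pools and any 2-fold apart with 50 or more mean counts; exceptions are marked, and 1 result is not reported here. The cartilage, muscle and other marker lists were set beside the results as sums. Tbxt carries the symbol T in M21 and was matched through RefSeq synonyms. With 1 group of 2 pools, no gene is named for likeness of pattern. Alternatives were other scalings, annotations, TPM totals, limits, pseudocounts, transcript sets and each pool left out.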

Additional observations from a re-analysis of the deposited data

How the results depend on the processing

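With complete protein-coding transcripts only, an alternative chosen after the data were seen, the median level of the 9 genes was 5.94 TPM, Gli1, Gli2 and Gli3 held 13.4%, 29.9% and 56.6% of the summed Gli TPM, and the ratio of Ptch1 to Smo was 0.304; all 9 genes stayed at 1 TPM or more. With M4 that ratio was 0.387. Spike-in scaling put the median log2 ratio of the 9 genes at 0.32, against 0.37 for all genes; by that scaling Hhip was at -0.01 and Gli1 at 0.16, so the direction of Gli1 and of the other small negative ratios depends on the scaling. With either pool left out, the median level ran from 12.1 to 16.6 TPM. A limit of 5 TPM left 6 of the 9 genes and 31 of the 44 others, and 0.5 TPM left 9 and 42. No gene of the 9 was 2-fold apart under any of the 4 scalings, with M4 counts, with a pseudocount on TPM or without the count filter. None was 1.5-fold apart by TMM scaling, but Shh (log2 ratio 0.66) was past that size by spike-in scaling. The share of the leading M21 transcript moved with M4 for Ptch1, Smo, Gli1, Hhip and Boc, and with counts in place of TPM for all but Shh and Boc. No paired analysis was possible because there is 1 group and its 2 pools have no counterparts. Depth limits Shh, Gli1 and Hhip, each under 500 mean counts, and short transcript models with few reads, whose TPM shares are uncertain.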
